A study of Mus musculus with 9 samples.

Results

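WNT receptors, ligands and inhibitors were followed in the MLO-Y4 osteocyte-like cell line through 10 genes. They are Lgr4, Lgr6, Znrf3, Axin2, Lrp5, Lrp6, Ctnnb1, Wnt5a, Sfrp1 and Dkk3, matched by gene symbol to a list of names. The deposited table held 56748 genes, of which 13812 passed the filter on low counts and were tested. Of the 10 genes, 8 passed. Wnt5a and Sfrp1 had no read in any library and were not tested.

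The 9 libraries hold bulk RNA of MLO-Y4 cells sharing a transwell with primary articular chondrocytes, so that the cells exchanged soluble factors through a membrane. The chondrocytes came from C57BL/6J mice aged 5 to 6 days. The control group (n = 3) shared medium with unstimulated chondrocytes. The 24 h group (n = 3) and the 48 h group (n = 3) shared medium for that time with chondrocytes first treated with interleukin-1β (IL-1β) at 10 ng/mL for 6 h and then washed. The MLO-Y4 cells of all groups grew on collagen-coated plates and were not themselves given the cytokine by the protocol. The culture time of the control group is not given in the labels, so effects of stimulation and of time cannot be told apart in a comparison with control. The 48 h libraries carry the cell line labels MLO-Y5, MLO-Y6 and MLO-Y7, whereas the protocols name MLO-Y4 throughout. Nothing states that the replicates were separate cultures, so p-values measure the spread between these samples, which may be technical.

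MLO-Y4 is a single immortalised mouse line that is widely used as a model of osteocytes. Its osteocyte label was checked against 8 markers. Sost, Mepe and Fgf23 had at most 3 counts in every library and Dmp1 at most 6, while Gja1, Cd44, Pdpn and Phex were present. The summed level of the 8 markers was 1944 to 2135 CPM (counts scaled to the library total) in control, 2247 to 2280 CPM at 24 h and 2865 to 2911 CPM at 48 h. Gja1, which encodes a gap junction protein, made up most of this sum, at 1497 ± 81.2 CPM in control and 2410 ± 23.9 CPM at 48 h (log2 change 0.69, adjusted p = 1.14e-10). Cd44 went the other way, from 331 ± 19.6 CPM to 223 ± 3.85 CPM (log2 change -0.57, adjusted p = 3.34e-08). Library totals ran from 12250628 to 18515456 counts. At these depths 3 counts correspond to between 0.160 and 0.245 CPM, the limit that a count of 0 allows for counting error only.

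In canonical WNT signalling a WNT ligand joins a Frizzled receptor to the co-receptors LRP5 and LRP6. This stops a destruction complex that contains AXIN proteins, and β-catenin (Ctnnb1) then accumulates and works with TCF/LEF factors on target genes, Axin2 and Znrf3 among them. ZNRF3 and RNF43 are ligases that remove Frizzled receptors from the cell surface, and R-spondins acting through LGR receptors hold these ligases back. In bone the pathway promotes bone formation, and osteocytes are known for secreting its inhibitor sclerostin, the product of Sost. RNA levels of these genes do not measure the signalling itself.

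At 48 h against control, Axin2 (3.74-fold), Dkk3 (1.36-fold) and Ctnnb1 (1.18-fold) were higher, and Lgr6 and Znrf3 were lower, by factors of 3.59 and 1.29. These were 5 of the 8 tested genes (62.5%), beside 46.4% of all genes tested, and they were called at an adjusted p under 0.05 by edgeR's quasi-likelihood test. The 3 higher members stand beside 22% of all genes called higher, and the 2 lower ones beside 24.4% called lower. The libraries of the 48 h and control groups did not overlap for the same 5 genes, a pattern that 53% of all tested genes shared. At 24 h against control, 2 of the 8 were called (25%), beside 6.15% of all genes. Both, Lgr6 and Dkk3, were lower, a direction called in 2.9% of genes, and no member was higher, a direction called in 3.25%. At 24 h 3 members had libraries that did not overlap with control, beside 21.5% of genes. The count of 2 at 24 h became 1 without control replicate 1, without any one of the 24 h or 48 h libraries, and with DESeq2, and 3 without control replicate 2 or 3. The median log2 fold change of the 8 genes was 0.12 at 48 h and -0.10 at 24 h, and that of all 13812 tested genes was near 0 (-0.0022 and -0.0042). Each log2 change given here is the log2 fold change estimated by edgeR, with its standard error (SE). In bulk RNA, fewer cells of one kind and less RNA per cell cannot be told apart.

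**Figure D1:**
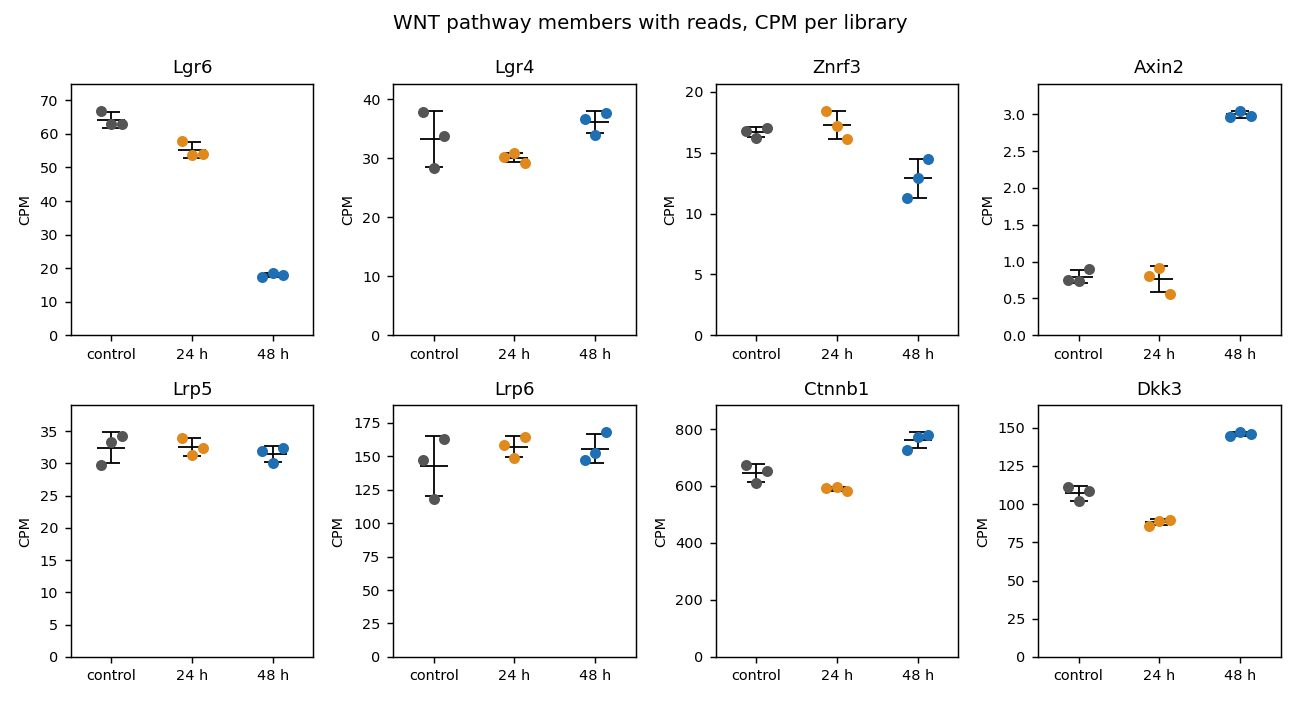
Levels of the 8 tested genes in CPM on linear axes that start at 0, with 1 panel per gene. Points are libraries and bars are group means with the SD (n = 3). Lgr6 lies between 17.3 and 18.5 CPM at 48 h, below every other library, Axin2 lies between 2.97 and 3.05 CPM at 48 h, above every other library, and the groups overlap for Lrp5 and Lrp6.

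Chondrocyte markers were counted in the same libraries because chondrocytes shared the wells. Of 17 markers, 7 (Acan, Matn1, Col9a1, Col9a2, Cnmd, Snorc and Ihh) had at most 3 counts in every library. The summed level of the 17 was 1684 to 1717 CPM in control, 1568 to 1651 CPM at 24 h and 2130 to 2219 CPM at 48 h. Prg4, which encodes the lubricant lubricin, was most of these sums at 1574 ± 25.0, 1491 ± 39.5 and 2044 ± 41.6 CPM, and Sox9 most of the rest at 112 ± 6.88, 104 ± 3.44 and 123 ± 3.58 CPM. Col2a1 had at most 7 counts in any library. Of the 7 markers tested, 4 were higher and 1 was lower at 48 h (71.4% called, beside 46.4% of all genes). Higher calls were 57.1% and lower calls 14.3%, beside 22% and 24.4% of all genes. The summed osteoblast markers were at 5158 to 5329 CPM in control, 5185 to 5395 CPM at 24 h and 3978 to 4009 CPM at 48 h. Spp1 was most of these sums, at 3877 ± 125, 4100 ± 121 and 2740 ± 30.6 CPM. Col1a1 was most of the rest. The part of either marker list in the values of the WNT genes was not tested.

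Lgr6 and Lgr4 encode related receptors for R-spondins. Lgr6 (ENSMUSG00000042793; GRCm39 chr1:134911039-135033014, minus strand) was at 67.0, 63.0 and 62.8 CPM in the control libraries. It was at 57.8, 53.7 and 54.1 CPM at 24 h. At 48 h it was at 17.3, 18.5 and 18.0 CPM. All 3 groups were apart from each other, with the 48 h libraries far below the rest. Means were 64.3 ± 2.36, 55.2 ± 2.29 and 17.9 ± 0.604 CPM (SD, n = 3 each). On the log2 scale it changed by -1.84 ± 0.07 (SE, adjusted p = 5.13e-13) at 48 h against control and -1.62 (adjusted p = 1.74e-12) at 48 h against 24 h. At 24 h it was -0.22 ± 0.06 (SE, adjusted p = 0.0371), a call that was lost in 10 of 14 alternative analyses. Over all 14 the log2 change stayed between -0.25 and -0.19, with adjusted p from 0.0239 to 0.161.

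The 250 bases before the annotated start of Lgr6 are shown because this was the tested gene of the group with the largest fall. They are given from 5′ to 3′ on the minus strand at GRCm39 chr1:135033015-135033264, directly beside the gene's first base. They were read from the RefSeq promoter table.

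Lgr6: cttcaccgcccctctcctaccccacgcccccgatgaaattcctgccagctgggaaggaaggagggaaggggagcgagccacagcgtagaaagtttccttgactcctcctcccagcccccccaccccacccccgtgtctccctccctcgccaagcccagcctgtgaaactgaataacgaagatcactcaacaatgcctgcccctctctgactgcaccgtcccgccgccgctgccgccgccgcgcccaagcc

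The window contained 16 CG dinucleotides and 65.2% G and C. It held no match on either strand to CTTTGA, the only TCF/LEF core sequence that was searched. That sequence was held by 13.8% of the 32851 windows in the table. A missing match says only that these letters are not in the window.

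Lgr4 (ENSMUSG00000050199; chr2:109747992-109844602, plus strand) showed a narrower range of levels. It was at 37.8, 28.3 and 33.7 CPM in control, at 30.2, 30.8 and 29.2 CPM at 24 h and at 36.7, 34.0 and 37.7 CPM at 48 h. Control libraries spread over the range of both other groups, while every 48 h library lay above every 24 h library. The gene's log2 change came to 0.11 ± 0.09 (SE, adjusted p = 0.308) at 48 h against control and -0.15 ± 0.09 (SE, adjusted p = 0.388) at 24 h. At 48 h against 24 h it was 0.27 ± 0.09 (SE, adjusted p = 0.0171). This call was lost without 24 h replicate 3 (adjusted p = 0.0544), 48 h replicate 1 (0.0508) or 48 h replicate 3 (0.0632). Without control replicate 1 Lgr4 was called higher at 48 h against control, at a log2 change of 0.23 (adjusted p = 0.0489).

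Read per kilobase (FPKM), which allows different genes to be compared, Lgr6 was the higher of the pair in every control and 24 h library and Lgr4 in every 48 h library. The ratio of the Lgr6 level to the Lgr4 level in FPKM was 1.68 ± 0.205 in control, 1.58 ± 0.0752 at 24 h and 0.427 ± 0.0350 at 48 h (SD, n = 3 each). Lgr5, the remaining receptor of this family, had 0 counts in all 9 libraries.

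**Figure D2:**
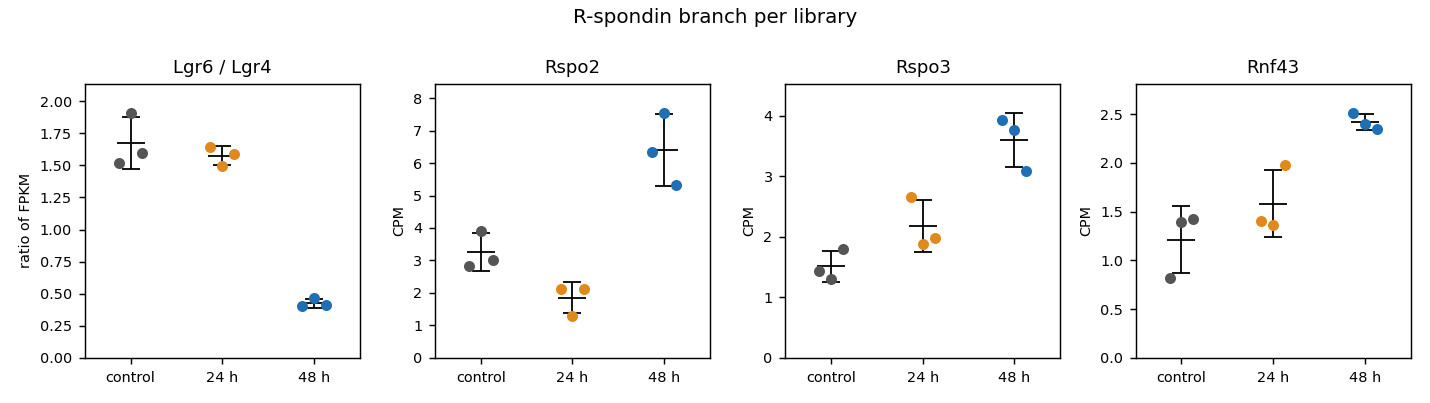
The ratio of Lgr6 to Lgr4 in FPKM (first panel) and the levels of Rspo2, Rspo3 and Rnf43 in CPM, on linear axes that start at 0. Points are libraries and bars are group means with the SD (n = 3). The ratio lies above 1 in every control and 24 h library and below 1 in every 48 h library, while Rspo2, Rspo3 and Rnf43 have their highest libraries at 48 h.

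The ligase Znrf3 (ENSMUSG00000041961; chr11:5226324-5394847, minus strand) was at 16.8, 16.3 and 17.1 CPM in control and at 18.5, 17.2 and 16.1 CPM at 24 h. At 48 h it was at 11.3, 12.9 and 14.4 CPM. The 48 h libraries lay below all others, and control and 24 h libraries overlapped. At 48 h the log2 change was -0.37 ± 0.10 (SE, adjusted p = 0.00625) against control and -0.42 ± 0.10 (SE, adjusted p = 0.00214) against 24 h. At 24 h it was 0.05 ± 0.10 (SE, adjusted p = 0.863).

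Rnf43, the partner ligase of Znrf3 and not a member of the 10, had the opposite sign at 48 h. It was at 0.815, 1.39 and 1.43 CPM in control, at 1.40, 1.37 and 1.97 CPM at 24 h and at 2.51, 2.39 and 2.35 CPM at 48 h. The 48 h libraries lay above the rest. Against control, the log2 change at 48 h came to 1.02 ± 0.28 (SE, adjusted p = 0.00598).

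The R-spondins bind LGR4, LGR5 and LGR6 from outside the cell. Rspo2 was at 2.82, 3.92 and 3.01 CPM in control, at 2.13, 1.30 and 2.11 CPM at 24 h and at 6.33, 7.54 and 5.33 CPM at 48 h. The 24 h libraries lay below control and the 48 h libraries above it, with log2 changes against control of -0.80 (adjusted p = 0.0631) and 0.99 ± 0.20 (SE, adjusted p = 6.59e-04). Rspo3 was at 1.44, 1.31 and 1.80 CPM in control, at 2.67, 1.89 and 1.97 CPM at 24 h and at 3.94, 3.77 and 3.09 CPM at 48 h, a log2 change of 1.24 ± 0.24 (SE, adjusted p = 3.22e-04). Rspo1 had no read in any library and Rspo4 had 2 reads in all. The 2 R-spondins that passed the filter rose at 48 h while the receptor Lgr6 fell.

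Axin2 encodes a scaffold of the destruction complex and is a commonly used target of the pathway. The gene (ENSMUSG00000000142; chr11:108811175-108841609, plus strand) was at 0.753, 0.735 and 0.902 CPM in control and at 0.800, 0.910 and 0.564 CPM at 24 h. At 48 h it was at 2.97, 3.05 and 2.99 CPM. The raw counts behind these levels were 12, 9 and 12 reads in control, 12, 14 and 8 reads at 24 h and 52, 51 and 56 reads at 48 h. The 48 h libraries were tightly grouped above all others, and control and 24 h libraries overlapped. At 48 h the log2 change was 1.90 ± 0.28 (SE, adjusted p = 1.59e-05) against control and 1.97 ± 0.27 (SE, adjusted p = 8.64e-06) against 24 h. At 24 h against control it was -0.06 ± 0.34 (SE, adjusted p = 0.955), an interval too wide at this depth to show a small change.

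The 250 bases before the start of Axin2 are shown for comparison with those of Lgr6, since the 2 genes moved most and in opposite directions. They lie on the plus strand at GRCm39 chr11:108810925-108811174, directly beside the gene's first base.

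Axin2: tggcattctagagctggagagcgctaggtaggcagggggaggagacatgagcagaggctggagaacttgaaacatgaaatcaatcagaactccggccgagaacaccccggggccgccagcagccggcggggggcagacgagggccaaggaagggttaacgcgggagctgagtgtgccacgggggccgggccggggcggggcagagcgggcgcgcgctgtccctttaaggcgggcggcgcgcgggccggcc

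The window had 24 CG dinucleotides and 69.2% G and C, and no CTTTGA on either strand. RefSeq windows were matched for 4 of the 10 genes (Lgr4, Lgr6, Axin2 and Ctnnb1), and none of their 5 windows held the motif.

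Lrp5 and Lrp6 encode the co-receptors that bind WNT together with Frizzled. Lrp5 (ENSMUSG00000024913; chr19:3634828-3736564, minus strand) was at 29.7, 33.3 and 34.2 CPM in control, at 33.9, 31.2 and 32.4 CPM at 24 h and at 32.0, 30.0 and 32.4 CPM at 48 h. All groups overlapped. Its log2 change came to 0.01 ± 0.08 (SE, adjusted p = 0.972) at 24 h and -0.04 ± 0.07 (SE, adjusted p = 0.712) at 48 h against control. Lrp6 (ENSMUSG00000030201; chr6:134423439-134543928, minus strand) was at 147, 118 and 163 CPM in control, at 159, 148 and 164 CPM at 24 h and at 147, 153 and 168 CPM at 48 h. Its groups overlapped as well. For Lrp6 the log2 change came to 0.14 ± 0.09 (SE, adjusted p = 0.436) at 24 h and 0.12 ± 0.08 (SE, adjusted p = 0.247) at 48 h. Without control replicate 3 Lrp6 was called higher at both times, at 0.24 (adjusted p = 0.0465 at 24 h and 0.0137 at 48 h). The ratio of Lrp6 to Lrp5 in FPKM was 3.15 ± 0.545 in control, 3.44 ± 0.151 at 24 h and 3.53 ± 0.221 at 48 h.

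Lrp4, a related receptor that binds sclerostin, is not a member of the 10. It was at 14.2, 12.7 and 13.4 CPM in control, at 12.3, 11.5 and 12.6 CPM at 24 h and at 31.7, 34.8 and 36.4 CPM at 48 h. At 48 h the log2 change was 1.35 ± 0.09 (SE, adjusted p = 6.02e-10), and the 48 h libraries were above all others. Sost had 1 read in the 9 libraries together.

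Ctnnb1 (ENSMUSG00000006932; chr9:120758282-120789573, plus strand) encodes β-catenin, which carries the signal to the nucleus and also holds cell junctions together. It was at 673, 611 and 651 CPM in control, at 592, 597 and 582 CPM at 24 h and at 727, 773 and 780 CPM at 48 h. The 24 h libraries lay below control and the 48 h libraries above it. The gene's log2 change came to 0.24 ± 0.04 (SE, adjusted p = 2.68e-04) at 48 h and -0.13 ± 0.04 (SE, adjusted p = 0.107) at 24 h against control. It was 0.36 ± 0.04 (SE, adjusted p = 2.05e-06) at 48 h against 24 h. Without control replicate 2 the value at 24 h was called, at -0.16 (adjusted p = 0.0189). Ctnnb1 overlaps Ulk4 on the opposite strand, whose counts came to 1.39% of those of Ctnnb1.

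Dkk3 belongs by sequence to the Dickkopf family, whose founding member DKK1 blocks LRP5 and LRP6. The gene (ENSMUSG00000030772; chr7:111715224-111758264, minus strand) was at 111, 102 and 109 CPM in control, at 85.9, 88.8 and 89.9 CPM at 24 h and at 145, 147 and 146 CPM at 48 h. All 3 groups were apart, with 24 h lowest and 48 h highest. Its log2 change came to -0.28 ± 0.05 (SE, adjusted p = 0.00241) at 24 h and 0.45 ± 0.05 (SE, adjusted p = 1.36e-06) at 48 h against control, so that the gene was called in opposite directions at the 2 times. Dkk1 had no read in any library. Dkk2 had 6, 0 and 3 reads in control, 1, 0 and 2 reads at 24 h and 17, 8 and 16 reads at 48 h, and did not pass the filter.

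Sfrp1 (ENSMUSG00000031548; chr8:23901518-23939648, plus strand) encodes a secreted Frizzled-related protein that binds WNT ligands. Wnt5a (ENSMUSG00000021994; chr14:28226707-28249405, plus strand) encodes a ligand best known for β-catenin-independent signalling. Both had 0 counts in all 9 libraries, which allows up to 0.245 CPM in the shallowest library and 0.160 CPM in the deepest. No change could be measured for either.

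Another gene of the Frizzled-related family was abundant. Sfrp4 was at 31.3, 33.4 and 31.2 CPM in control, at 24.5, 26.3 and 22.6 CPM at 24 h and at 144, 139 and 132 CPM at 48 h. Its libraries separated the 3 groups in the same order as those of Dkk3. Relative to control the log2 change came to -0.38 ± 0.07 (SE, adjusted p = 0.00288) at 24 h and 2.11 ± 0.07 (SE, adjusted p = 9.74e-14) at 48 h. Of the 15 other inhibitors listed, 3 were tested. At 48 h Sfrp4 was the 1 called higher and Sfrp2 the 1 called lower (66.7% called, beside 46.4% of all genes). Of all genes 22% were called higher and 24.4% lower. Sfrp2, at 1.26 ± 0.176 CPM in control and 0.489 ± 0.0394 CPM at 48 h, fell by 1.36 on the log2 scale (adjusted p = 0.00379).

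**Figure D3:**
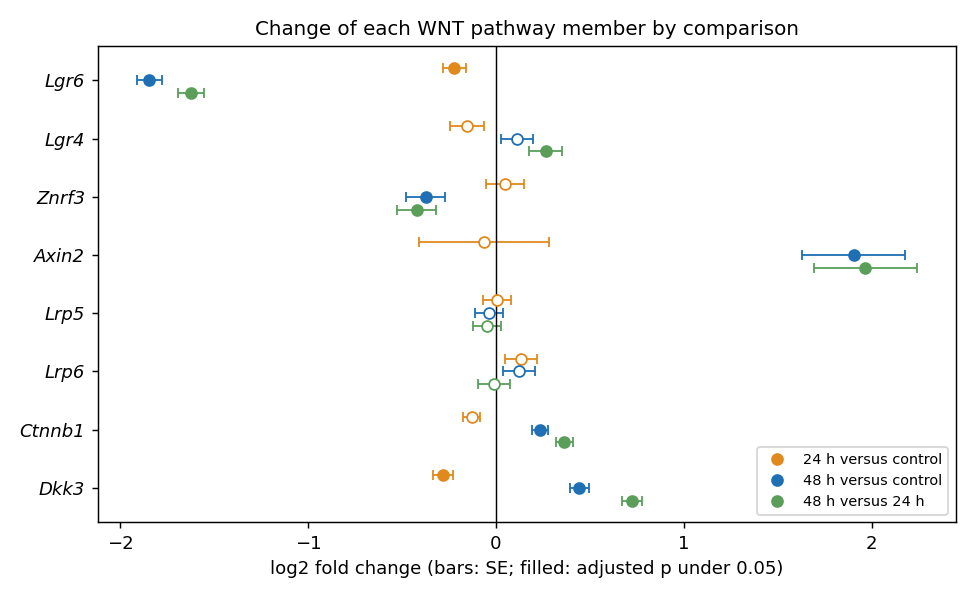
Log2 fold change of the 8 tested genes at 24 h and at 48 h against control and at 48 h against 24 h, in separate colours. Points are edgeR estimates with bars of 1 SE, filled where the adjusted p was under 0.05. Lgr6 (-1.84) and Axin2 (1.90) lie far from 0 at 48 h, and Dkk3 lies below 0 at 24 h and above 0 at 48 h, and these 2 comparisons share the control libraries.

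Between the 2 stimulated groups, which differ in labelled co-culture time, 6 of the 8 genes differed (75%), beside 49.1% of all tested genes. Axin2, Dkk3, Ctnnb1 and Lgr4 were higher at 48 h, a direction called in 23.7% of genes, and Lgr6 and Znrf3 were lower, a direction called in 25.4%. For these 6 genes no 48 h library fell within the range of the 24 h libraries, as for 59.5% of all genes. The joint test of the 3 groups called the same number, 6 of 8, beside 51.9% of all genes, and Lrp5 (adjusted p = 0.846) and Lrp6 (adjusted p = 0.322) were not called.

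Per kilobase, the order of the levels in control was Ctnnb1 (124 FPKM), Dkk3 (31.9 FPKM), Lrp6 (10.4 FPKM), Lgr6 (9.38 FPKM), Lgr4 (5.66 FPKM), Lrp5 (3.33 FPKM), Znrf3 (2.12 FPKM) and Axin2 (0.145 FPKM). Only the neighbours Lrp6 and Lgr6 had overlapping libraries in that group. At 48 h the order changed by the fall of Lgr6 to 2.62 FPKM, below Lgr4 (6.14 FPKM) and Lrp5 (3.23 FPKM). Axin2 remained the lowest of the 8 at 0.545 FPKM.

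**Figure D4:**
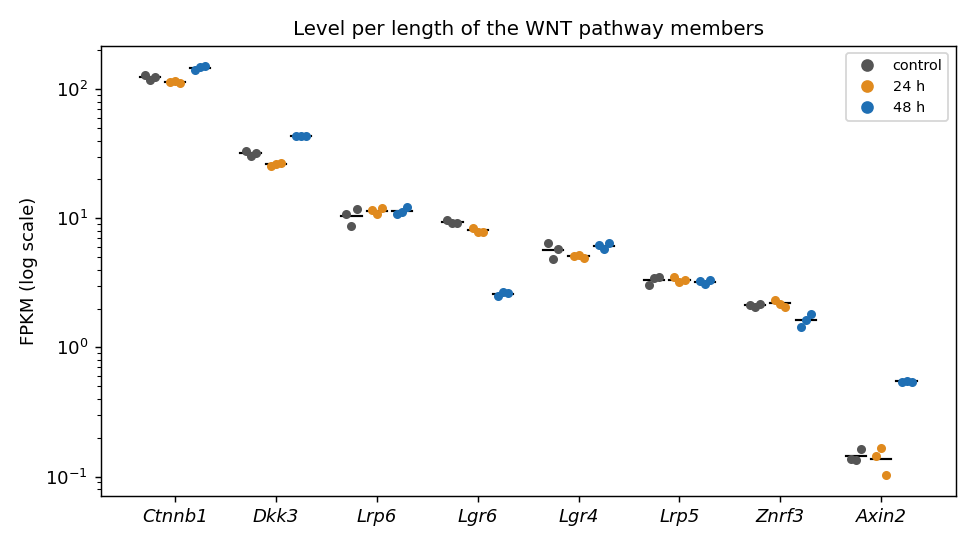
Levels of the 8 tested genes in FPKM on a log axis, by group. Points are libraries and dashes are group means. Ctnnb1 is highest and Axin2 lowest in every group, and Lgr6 moves from 9.38 FPKM in control to 2.62 FPKM at 48 h.

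The remaining pathway was read from a list of 108 other genes, of which 70 were tested. At 48 h against control 34 of the 70 were called (48.6%), 24 higher (34.3%) and 10 lower (14.3%), beside 46.4% of all genes called, 22% higher and 24.4% lower. Their median log2 fold change was 0.12. At 24 h 6 of the 70 were called (8.57%), 2 higher and 4 lower, beside 6.15% of all genes. At 48 h against 24 h 35 were called (50%), 25 higher (35.7%) and 10 lower (14.3%), beside 49.1% of all genes called, 23.7% higher and 25.4% lower. The shares called thus lay near those of all genes, while the list held more higher and fewer lower calls than all genes did, a difference that was not tested.

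Of the 18 other WNT ligands, 6 were tested, with 1 higher (Wnt3) and 1 lower (Wnt2b) at 48 h (33.3% called, beside 46.4% of all genes). Wnt3 was at 1.88, 1.14 and 1.80 CPM in control, at 1.13, 0.910 and 0.423 CPM at 24 h and at 3.48, 2.45 and 2.45 CPM at 48 h, with a log2 change of 0.78 ± 0.29 (SE, adjusted p = 0.0366) at 48 h against control. Wnt2b was at 12.4, 11.4 and 13.3 CPM in control, at 8.27, 5.98 and 6.63 CPM at 24 h and at 9.47, 9.22 and 10.0 CPM at 48 h. On the log2 scale it changed by -0.83 ± 0.13 (SE, adjusted p = 4.04e-04) at 24 h and -0.37 ± 0.12 (SE, adjusted p = 0.0207) at 48 h. Wls, the carrier that brings WNT proteins to the cell surface, rose from 181 ± 3.27 CPM to 257 ± 4.80 CPM at 48 h (log2 change 0.51, adjusted p = 6.75e-08). Porcn, which attaches the lipid of WNT proteins, was not called (log2 change 0.12, adjusted p = 0.551).

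Among the 15 other receptors and co-receptors 11 were tested, and 5 were higher and none was lower at 48 h (45.5% called, beside 46.4% of all genes, of which 22% were higher and 24.4% lower). Besides Lrp4, the Frizzled receptor Fzd1 was at 72.9 ± 4.21 CPM in control, 80.7 ± 5.90 CPM at 24 h and 132 ± 7.17 CPM at 48 h, a log2 change of 0.86 (adjusted p = 5.27e-09) at 48 h. Ror2, a receptor for WNT5A, was at 46.3 ± 0.349 CPM in control and 59.3 ± 3.40 CPM at 48 h (log2 change 0.36, adjusted p = 2.11e-04), and Ror1 had 1 read in all. The list of the β-catenin-independent branch shares Ror1, Ror2, Ryk and Ptk7 with the receptors, and Wnt5b and Wnt11 with the ligands. In this branch 3 of 11 tested genes were higher and none was lower at 48 h (27.3% called, beside 46.4% of all genes). Prickle1, a planar polarity gene, was called higher at both times, by 0.43 on the log2 scale at 24 h (adjusted p = 1.92e-04) and by 1.07 at 48 h (adjusted p = 1.33e-10). Daam2, a formin that binds Dishevelled, rose by 2.66 at 48 h from a level of 0.458 ± 0.141 CPM to 2.94 ± 0.309 CPM (adjusted p = 2.49e-06).

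Of 19 tested genes of cytoplasmic transduction, 6 were higher and 2 lower at 48 h (42.1% called, beside 46.4% of all genes), with Amer1 at 0.46 and Tnks2 at 0.32 on the log2 scale. Of 15 nuclear factors 5 were higher and 3 lower (53.3% called). Among them the cofactor Pygo1 rose by 1.49 ± 0.33 (SE, adjusted p = 0.00115) and Tle2, a corepressor, by 1.06 ± 0.08 (SE, adjusted p = 9.78e-09). Tcf7l2, a TCF factor, was lower at 24 h by -0.34 (adjusted p = 0.0482), as was Tle2 by -0.32 (adjusted p = 0.0451), and the corepressor Tle3, named after its values were seen, was higher by 0.25 (adjusted p = 0.0451).

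Commonly used target genes moved in both directions. Of 7 tested without the 10 genes, 1 was higher (Rnf43) and 4 were lower at 48 h (71.4% called, beside 46.4% of all genes, of which 22% were higher and 24.4% lower). Their median log2 fold change was -0.57, beside -0.0022 for all genes. Ccnd1, which encodes cyclin D1, was at 251, 231 and 265 CPM in control, at 233, 240 and 235 CPM at 24 h and at 104, 96.8 and 104 CPM at 48 h, a log2 change of -1.29 ± 0.06 (SE, adjusted p = 3.71e-12). Lef1, itself a TCF/LEF factor, was at 4.38 ± 0.886 CPM in control and 1.84 ± 0.305 CPM at 48 h, with no overlap of libraries, a log2 change of -1.26 ± 0.22 (SE, adjusted p = 1.42e-04). The other 2 lower genes were Cd44, listed above as an osteocyte marker, and Myc (-0.64 on the log2 scale, adjusted p = 1.49e-08), which was named after its values were seen. Ccnd1 overlaps LTO1 on the opposite strand, and whether counting used the strand is not stated.

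Lef1 is shown as sequence because 1 window of this gene held the TCF/LEF core sequence that was searched. RefSeq gave 4 windows for Lef1, and the 3 nearest the gene's start held no match. The window shown precedes an internal start inside the gene, 45822 bases from its first base, at GRCm39 chr3:130949693-130949942 on the plus strand. Capitals mark TCAAAG, the reverse complement of CTTTGA, which begins 180 and 120 bases before that start.

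Lef1: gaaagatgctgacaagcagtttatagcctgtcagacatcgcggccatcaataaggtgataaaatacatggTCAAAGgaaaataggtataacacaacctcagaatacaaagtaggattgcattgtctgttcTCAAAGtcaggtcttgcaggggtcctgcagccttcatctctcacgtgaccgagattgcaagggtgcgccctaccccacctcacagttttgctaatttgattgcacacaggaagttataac

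Of the 28 named genes of the pathway outside the 10, 20 were matched in the RefSeq table, and 4 of their 27 windows held the motif, beside 13.8% of all windows. Besides the Lef1 window these were windows of Dkk1 and Ror1, with no read and 1 read in all, and of Fzd1, which was higher at 48 h. A match is a run of letters and not a measured site.

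**Figure D5:**
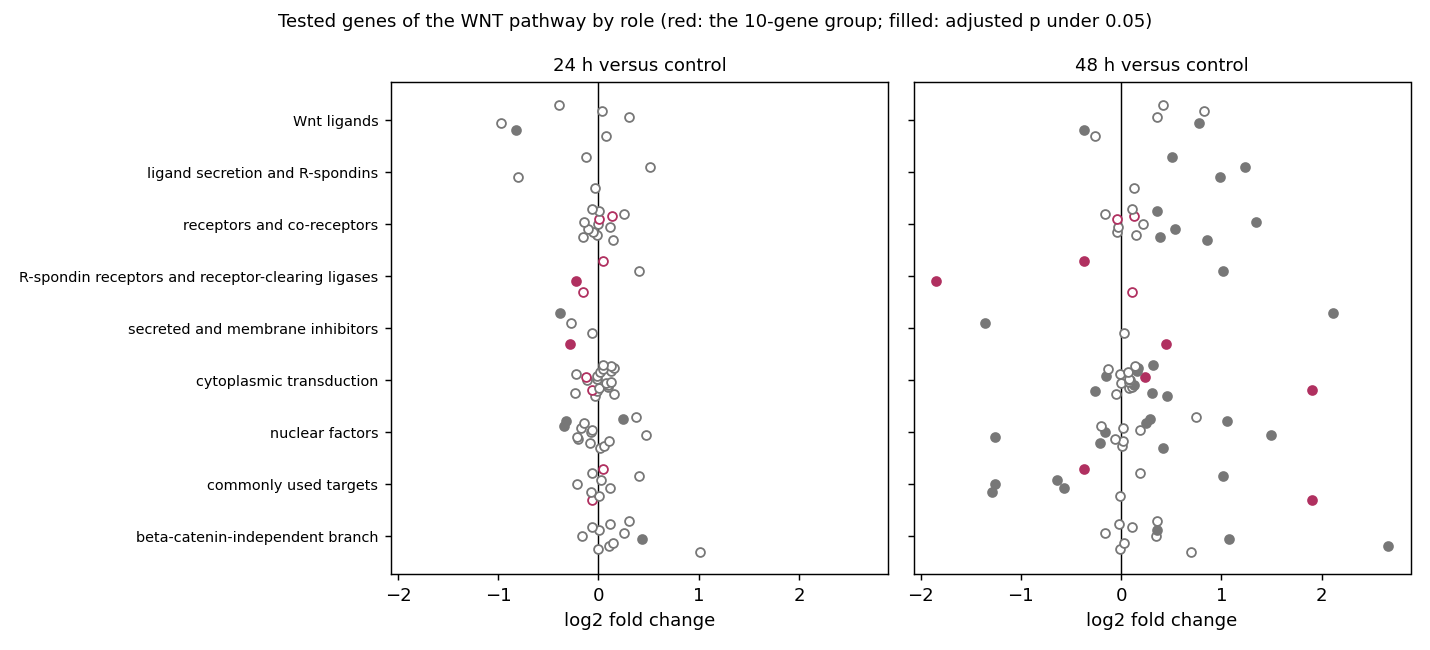
Log2 fold change against control at 24 h (left panel) and 48 h (right panel) for every tested pathway gene, in 1 row per role, with the 8 tested members in red and the other genes in grey, filled where the adjusted p was under 0.05. A gene with 2 roles appears in both rows. Outside the 10 genes, the receptors and co-receptors at 48 h include 5 called higher and none lower, whereas the target row has 4 lower and 1 higher. The target row also holds the members Axin2, called higher, and Znrf3, called lower.

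The genes whose pattern was most like that of Lgr6 and of Axin2 were searched among 11779 protein-coding genes by Pearson's r of log2 CPM over the 9 libraries, as a description. For Lgr6 they were Ccl7 (r = 0.9959), Pcolce2 (r = 0.9942) and Melk (r = 0.9937), and 800 genes exceeded an r of 0.95. For Axin2 they were Add3 (r = 0.9981), Dio2 (r = 0.9956) and Snhg11 (r = 0.9943), and 376 genes exceeded 0.95. With 3 groups in which 48 h stands apart, many genes share such a pattern. Pcolce2 went from 49.2 CPM in control to 10.7 CPM at 48 h, a larger fall in proportion than that of Lgr6 (64.3 to 17.9 CPM). Dio2, the enzyme that activates thyroid hormone, went from 2.28 CPM to 11.8 CPM.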

How the data were processed

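RNA of MLO-Y4 cells was sequenced from directional libraries. The authors trimmed reads of 150 bp, aligned them with HISAT2 to GRCm39 and deposited 1 table of raw counts per gene from featureCounts (version 2.06 in the submitters' processing notes). The labels and the methods write other versions, the methods also name RSEM, and the strand setting is not stated. Counts of overlapping genes are therefore uncertain. Groups and replicate numbers came from the sample titles, and 0 columns of other samples were present. Replicates differed beyond counting noise, and each counted as 1 sample. Chi-square per degree of freedom was 5.1 to 8.45 between control libraries, 2.36 to 3.49 at 24 h and 2.32 to 3.73 at 48 h. Such a spread does not show that the replicates were separate cultures.

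The deposited counts were analysed in R 4.3.3 with edgeR 4.0.16, which builds on limma 3.58.1. The filterByExpr function, at a minimum count of 10, retained 13812 genes with 99.9% of all reads. Libraries were scaled by TMM (trimmed mean of M values). A single quasi-likelihood model of group, with no other term, was fitted to the 9 libraries, leaving 6 residual degrees of freedom. Adjustment of p-values was by Benjamini-Hochberg over all 13812 genes, and a gene under 0.05 was called. Each standard error was obtained as the log2 fold change divided by the root of its F statistic. CPM is relative to the TMM-scaled library total. FPKM was computed from CPM and the gene length in the deposited table. The fit was tested on simulated counts with known changes.

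The members and the lists were chosen with earlier results of these data known, so no p was computed over a list and shares are read beside those of all genes. Of the other pathway genes the text names 14 fixed by symbol (for example Lgr5, the R-spondins, Sost and Wls), the 2 called genes of each role with the largest change at 48 h, and up to 5 called at 24 h, at a mean of at least 1 CPM. Likeness could not be computed for Wnt5a, which had no reads, and planned comparisons of protein sequence were not made.

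Same-numbered replicates did not visibly deviate together (correlations of -0.0531 to 0.0751 in 9 pairs, against a limit of 0.1). Pairs with different numbers spanned -0.0966 to 0.0947. Samples were therefore treated as unpaired, though the check cannot show whether same-numbered ones were handled together. Promoter windows of 250 bases were taken from a RefSeq table of build GRCm38.p6, and the 3 windows printed were each located by a single exact match in GRCm39. Gene coordinates of the deposited count table were compared with the reference annotation. For 88.9% of shared gene IDs the chromosome matched and both start and end lay within 2000 bases. The promoter windows were not part of this comparison. Alternatives were scaling by library size, no filter, the 2 groups alone, DESeq2 1.42.0, a threshold of 0.01, the replicate block and leaving out each library.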

Additional observations from a re-analysis of the deposited data

Results flagged for a closer look

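For 6 of the 8 tested genes (75%), beside 49.1% of all genes, the change against control differed between 48 h and 24 h. This was tested by comparing the 48 h and 24 h libraries directly, and these are the same tests as given above. Such a comparison amounts to the difference of the 2 changes because both share the control libraries. No unstimulated group is labelled with either time, so stimulation and culture time cannot be told apart here either. The log2 fold change at 48 h minus that at 24 h was -1.62 for Lgr6 (adjusted p = 1.74e-12), 1.97 for Axin2 (adjusted p = 8.64e-06), 0.73 for Dkk3 (adjusted p = 2.45e-09), 0.36 for Ctnnb1 (adjusted p = 2.05e-06), -0.42 for Znrf3 (adjusted p = 0.00214) and 0.27 for Lgr4 (adjusted p = 0.0171). Dkk3 was called in opposite directions at the 2 times, whereas Axin2, Ctnnb1 and Znrf3 were called at 48 h and not at 24 h. Groups of 3 are too small for the test for a sample far from the others, so none was run.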

How the results depend on the processing

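Each of the 24 values of the 8 genes was recomputed in 14 alternatives. Direction and side of the threshold were kept in 309 of 336 cases, 13 lost a call, 4 gained one and 10 changed sign, all 10 among values that were not called. With library size only, Lrp5 at 24 h against control was -0.010 and Lrp6 at 48 h against 24 h was 0.028. Leaving out 1 library moved Lrp5 between -0.089 and 0.019 at 48 h and between -0.0525 and 0.056 at 24 h, both against control, Axin2 at 24 h between -0.21 and 0.11, and Lrp6 at 48 h against 24 h between -0.065 and 0.030. The calls for Lgr6, Axin2, Dkk3, Ctnnb1 and Znrf3 at 48 h held in all 14. At 24 h the number of members called fell from 2 to 1 with no filter, with the 2 groups alone and with DESeq2, and to 1 at a threshold of 0.01, and ranged from 1 to 3 without 1 library, with 3 only without control replicate 2 or 3. The count of other pathway genes at 24 h went from 6 to 3 at 0.01 and ranged from 3 to 10 without 1 library (10 without control replicate 3, 3 without control replicate 1 or any one 24 h library). The causes were not tested. With the replicate number as a block, members called stayed at 5 at 48 h, 2 at 24 h and 6 between the times, and other pathway genes called came to 35, 6 and 35. Depth limits Axin2, with 8 to 14 reads outside the 48 h group, and the genes with no reads. Other named genes were as shallow. Daam2 had 4 to 8 reads in control and 5 to 9 at 24 h, and Pygo1 7 to 9 in control and 10 to 15 at 24 h. Sfrp2 had 8 to 10 reads at 48 h.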
